A study of Mus musculus with 6 samples.

Results

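The 39 protein-coding Hox genes of the mouse lie in 4 clusters, and the values here are the Lsd1 ChIP-seq peaks called in and around those clusters in C2C12 cells. Members were the protein-coding genes of curated RefSeq on mm10 whose symbol is Hoxa, Hoxb, Hoxc or Hoxd with a number. They made up 39 of the 21000 protein-coding genes with an annotated transcription start site (TSS). Every peak centred between 10 kb before the first and 10 kb after the last gene of a cluster was kept, which gave 120 of the 95852 peaks of the series.

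C2C12 is a line of mouse myoblasts, derived from thigh muscle, that fuses into myotubes in low serum and can be turned towards fat cells by an adipogenic cocktail. The first group was wild-type cells on day 1 of myogenic differentiation, in medium with horse serum (myogenic). The second was wild-type cells on day 1 of adipogenic differentiation, in serum with isobutylmethylxanthine, indomethacin, dexamethasone, insulin, T3 and rosiglitazone (adipogenic). The third was LSD1(OE) cells in that adipogenic medium on day 1, a stable line with a Flag-tagged LSD1 construct under a tetracycline-dependent promoter, delivered by lentivirus, selected with G418 and induced with doxycycline. Chromatin was precipitated in every group with an antibody raised against the C-terminus of Lsd1, and each group had 1 ChIP and 1 input library. No value below therefore has a replicate, no test between conditions was possible, and intervals cover counting error only. Whether fewer cells carried Lsd1 at a site or each cell carried less cannot be told apart in bulk chromatin.

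The ChIP libraries held between 46155625 and 63915769 tags after the authors' duplicate limit. The authors called peaks with MACS for each ChIP against its own input, 43426 in the myogenic, 18893 in the adipogenic and 33533 in the LSD1(OE) library. The deposited score of a peak is 10 times −log10 of its p-value after ChIP tags had been scaled up to the larger input, by 1.90, 1.28 and 1.82 in that order, so at equal tags and background the myogenic and LSD1(OE) libraries score higher. The adipogenic library was the deepest and held the fewest peaks, and its smallest called peak had 35 tags, against 27 and 30.

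Hox genes encode homeodomain transcription factors that give cells their position along the body and limb axes. Genes with low numbers (anterior) are used towards the head and those with high numbers (posterior) towards the tail and the limb tip, in the order in which they stand in each cluster. Lsd1, encoded by Kdm1a, is a histone demethylase of the CoREST complex that removes methyl groups from histone tails, and Hox clusters are textbook targets of chromatin regulators such as the Polycomb and Trithorax groups.

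The sequences below are shown because the results turn on these places. The first 5 are windows of 201 bases centred on peak summits: the Hoxc13 promoter (chr15:102920643-102920843, myogenic summit), the Hoxc11 promoter (chr15:102953639-102953839, adipogenic summit), the space between Hoxc8 and the curated Hoxc6 TSS (chr15:102998958-102999158, myogenic summit), the long Hoxa3 intron (chr6:52211611-52211811, myogenic summit) and the interval between the microRNA gene Mir196a-2 and the Hoxc9 TSS (chr15:102975884-102976084, myogenic summit). The last 2 are the 250 bases before the TSS of Hoxd13 (chr2:74667975-74668224) and of Hoxb4 (chr11:96318017-96318266), where no library had a peak. All are the plus strand of GRCm38.p6, which is mm10, and capitals mark CpG dinucleotides.
Hoxc13 promoter summit: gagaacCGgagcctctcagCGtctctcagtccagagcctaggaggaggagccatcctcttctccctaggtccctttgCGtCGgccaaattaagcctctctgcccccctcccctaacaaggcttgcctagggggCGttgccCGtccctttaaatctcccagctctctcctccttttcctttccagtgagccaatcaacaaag
Hoxc11 promoter summit: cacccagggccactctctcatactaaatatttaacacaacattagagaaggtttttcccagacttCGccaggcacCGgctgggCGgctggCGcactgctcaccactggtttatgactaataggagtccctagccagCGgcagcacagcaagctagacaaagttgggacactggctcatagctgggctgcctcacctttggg
Hoxc8-Hoxc6 summit: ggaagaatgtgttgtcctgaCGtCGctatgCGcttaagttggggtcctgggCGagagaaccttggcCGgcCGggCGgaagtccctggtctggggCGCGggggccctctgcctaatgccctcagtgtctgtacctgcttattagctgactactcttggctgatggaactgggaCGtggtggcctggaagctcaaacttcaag
Hoxa3 intron summit: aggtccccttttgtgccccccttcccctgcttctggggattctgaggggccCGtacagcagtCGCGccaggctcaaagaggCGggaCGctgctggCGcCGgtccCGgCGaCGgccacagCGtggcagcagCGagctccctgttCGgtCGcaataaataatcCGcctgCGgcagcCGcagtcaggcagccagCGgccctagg
Mir196a-2 summit: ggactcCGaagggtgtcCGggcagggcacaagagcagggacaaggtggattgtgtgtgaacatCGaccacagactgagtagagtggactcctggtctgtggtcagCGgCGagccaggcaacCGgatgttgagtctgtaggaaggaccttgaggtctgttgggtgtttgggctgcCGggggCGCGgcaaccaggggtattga
Hoxd13 before the TSS: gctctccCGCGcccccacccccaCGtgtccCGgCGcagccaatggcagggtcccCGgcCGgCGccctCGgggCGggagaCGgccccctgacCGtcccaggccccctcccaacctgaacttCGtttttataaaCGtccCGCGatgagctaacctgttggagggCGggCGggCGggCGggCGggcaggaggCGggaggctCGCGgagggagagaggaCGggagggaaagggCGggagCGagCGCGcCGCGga
Hoxb4 before the TSS: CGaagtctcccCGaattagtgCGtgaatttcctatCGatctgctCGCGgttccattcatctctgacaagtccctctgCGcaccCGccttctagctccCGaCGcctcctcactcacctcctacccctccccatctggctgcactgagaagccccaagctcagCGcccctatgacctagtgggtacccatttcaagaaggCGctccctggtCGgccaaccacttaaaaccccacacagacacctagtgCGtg

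The windows held 6 CpG dinucleotides at Hoxc13, 5 at Hoxc11, 10 between Hoxc8 and the curated Hoxc6 TSS, 18 in the Hoxa3 intron and 9 between Mir196a-2 and Hoxc9. The unbound stretches before Hoxd13 and Hoxb4 held 31 and 14. A high CpG content thus occurred both with and without an Lsd1 peak.

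Lsd1 peaks were dense in the Hoxa and Hoxc clusters, sparse in Hoxb and missing from Hoxd. Hoxc, on chromosome 15 (102921131 to 103036856), held 27 myogenic, 16 adipogenic and 25 LSD1(OE) peaks in its window of 136 kb. Hoxa, on chromosome 6 (52155367 to 52260880), held 20, 12 and 16 peaks in 126 kb. Hoxb, on chromosome 11 (96194316 to 96368254), held 1, 0 and 3 in 194 kb, and Hoxd, on chromosome 2 (74668225 to 74765142), held 0 in each library in 117 kb. The sparse and the dense clusters were separated in each library, whichever condition was taken.

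Per 100 kb, the Hoxc window held 19.9 myogenic, 11.8 adipogenic and 18.4 LSD1(OE) peaks, against 1.59, 0.693 and 1.23 over the main chromosomes. Hoxa held 15.9, 9.56 and 12.8 per 100 kb. The share of bases under a peak gave the same order of clusters. In Hoxc it was 42.4% in the myogenic, 20.5% in the adipogenic and 27.1% in the LSD1(OE) library, and in Hoxa 22.9%, 12.8% and 16.2%. In Hoxb it was 0.293%, 0% and 1.01%, below the 1.80%, 0.927% and 1.46% of the main chromosomes. Chromosome 15 as a whole was the most covered of the 21 chromosomes in every library, at 4.97%, 3.31% and 4.05%, and the part of this in the Hoxc values was not tested. Chromosome 11, which carries the sparse Hoxb, ranked 2 in each library, at 3.43%, 1.88% and 2.87%.

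**Figure D1:**
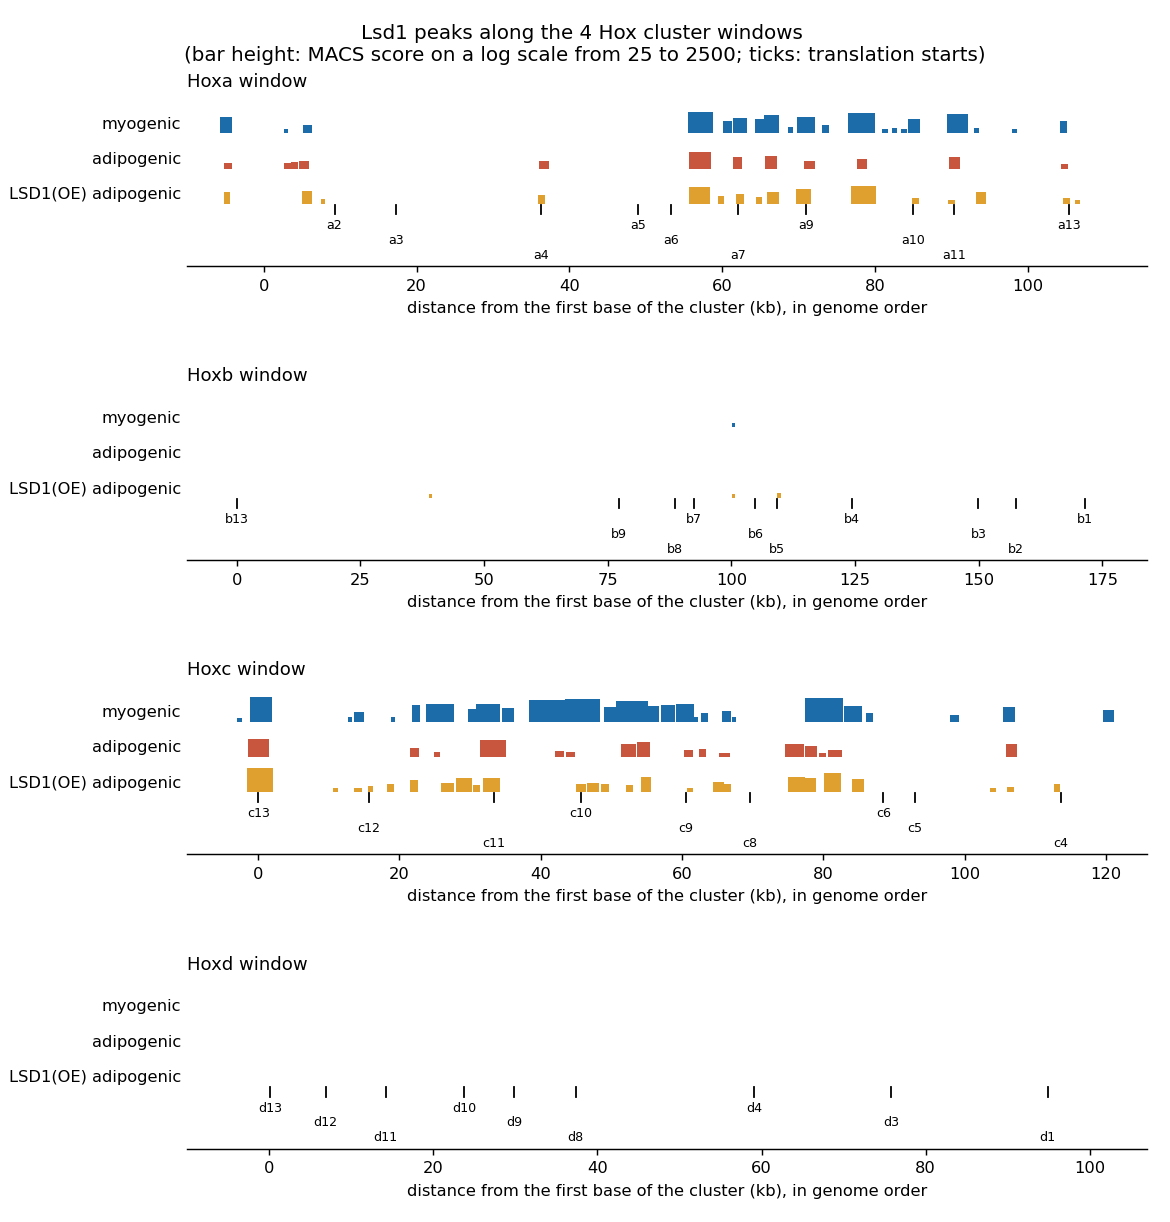
Lsd1 peaks along the 4 Hox cluster windows, one row per library, with distance from the first base of the cluster in kb on the horizontal axis, bar height giving the score on a log scale and ticks the translation starts of the genes shown. Peaks crowd Hoxc and Hoxa in all 3 libraries, Hoxb has 1, 0 and 3 and Hoxd has 0.

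**Figure D2:**
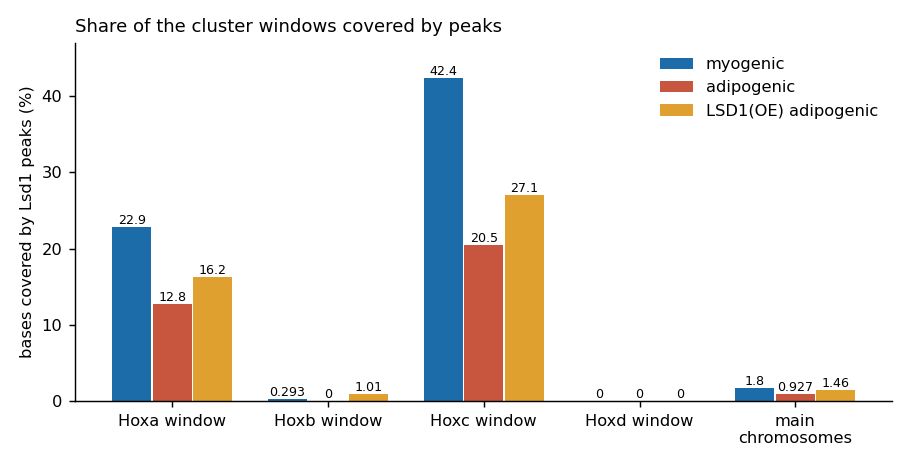
Share of each cluster window under Lsd1 peaks (percent of bases, bars from 0) in the myogenic, adipogenic and LSD1(OE) libraries, with the main chromosomes for comparison. Hoxc reaches 42.4%, 20.5% and 27.1% and Hoxa 22.9%, 12.8% and 16.2%, while Hoxd stays at 0.

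Stretches of 100 kb without a peak were common over the genome as a whole. Cut into 27247 tiles of 100 kb, the genome had 57.8%, 72.0% and 63.0% of tiles without a peak in the myogenic, adipogenic and LSD1(OE) libraries. The tiles were not matched for gene content, and the Hoxd window holds 9 Hox genes and 6 others. How often a window so dense in genes is empty was not tested. Hoxd also lacked peaks in its surroundings, with the nearest at 89.5 kb, 89.7 kb and 89.4 kb before the cluster in the 3 libraries. After the cluster the nearest peak lay 60.6 kb, 200.7 kb and 60.7 kb away. None of the 9 Hoxd genes, from Hoxd13 of the limb tip to the anterior Hoxd1, came closer than 62793 bp to a myogenic peak.

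A promoter peak was one centred within 2000 bp of the nearest TSS. By this rule 13 of the 39 Hox genes had one in the myogenic library (33.3%, exact binomial 95% interval 19.1 to 50.2%), where 46.0% of all protein-coding genes did. In the adipogenic library 11 did (28.2%, 15.0 to 44.9%), against 26.7% of all, and in the LSD1(OE) library 14 did (35.9%, 21.2 to 52.8%), against 36.8%. The background lay within the interval of the Hox share in each library. Of the peaks in the 4 windows, 23 of 48 (47.9%), 16 of 28 (57.1%) and 24 of 44 (54.5%) lay at a promoter, against 28.7%, 35.5% and 29.1% of all peaks. The windows are dense in genes, with the 39 Hox genes and further non-Hox genes in 572 kb. The main chromosomes hold 26180 genes with a TSS in 2725521 kb. The part of gene density in these shares and in the peaks per 100 kb was not tested.

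Across clusters the promoter peaks were uneven. Hoxa had 7 of 11 genes with a promoter peak in every library, Hoxc 6, 4 and 6 of 9, Hoxb 0, 0 and 1 of 10, and Hoxd 0 of 9 throughout. In all, 17 genes had one in some library and 22 had none. The 9 genes with one in all 3 libraries were Hoxa3, Hoxa7, Hoxa9, Hoxa10, Hoxa13, Hoxc9, Hoxc10, Hoxc11 and Hoxc13, of which all but Hoxa3 and Hoxa7 belong to the posterior groups 9 to 13. Hoxa11 had one in the myogenic and adipogenic libraries, Hoxc12 in the myogenic and LSD1(OE) libraries and Hoxa4 in the adipogenic and LSD1(OE) libraries. Hoxc6 had one in the myogenic library alone, and Hoxa2, Hoxb5 and Hoxc4 in the LSD1(OE) library alone.

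By position, 9, 8 and 8 of the 16 posterior genes had a promoter peak in the myogenic, adipogenic and LSD1(OE) libraries. Of the 15 central genes (groups 4 to 8) 2, 2 and 4 did, and of the 8 anterior genes (groups 1 to 3) 2, 1 and 2. In Hoxa and Hoxc alone, a split made after the values had been seen, the counts were 9, 8 and 8 of 9 posterior, 2, 2 and 3 of 8 central and 2, 1 and 2 of 3 anterior genes. In those clusters the posterior genes thus carried most of the promoter peaks. The anterior entry of Hoxa3 is a matter of annotation, because the curated TSS at 52213067 stands 40.4 kb upstream of the translation start, beyond Hoxa6.

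Covered bases showed the same lean in 2 of the libraries in Hoxa and in all 3 in Hoxc. In the Hoxa window 35.0% of the posterior, 21.1% of the central and 8.71% of the anterior stretch lay under myogenic peaks. The LSD1(OE) library gave 22.1%, 17.4% and 7.16%, while the adipogenic library gave 11.6%, 15.6% and 11.3% and so showed no such order. In the Hoxc window the posterior stretch was more covered than the central in all 3 libraries, at 55.9% against 25.6%, 23.5% against 16.9% and 32.1% against 20.9%.

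Hoxc13, a posterior gene with a known part in hair and nail formation, had the highest-scoring peak of all 4 windows. Its promoter peak held 361 myogenic tags (exact Poisson 95% interval 324.7 to 400.2), 358 adipogenic (321.9 to 397.1) and 426 LSD1(OE) tags (386.5 to 468.4), all at an FDR of 0%. Per kb and per 1000000 filtered ChIP tags, the density used from here on, this was 2.51, 1.95 and 2.13. The scores were 2073, 653 and 2098, which placed the peak in the top 0.410%, 2.57% and 0.474% of its library. The peaks spanned chr15:102919970-102923081, chr15:102919791-102922666 and chr15:102919639-102923259 around the TSS at 102921131. The myogenic and LSD1(OE) summits, at 102920743 and 102920716, lay before the TSS in the window printed above, and the adipogenic summit at 102921711 lay in an exon of Hoxc13. By tags the wild-type libraries were close, although the adipogenic one was the deeper, and divided by the scaling the scores were 1093, 512 and 1150, with the adipogenic still lowest. The myogenic density was 1.29 times the adipogenic (interval 1.11 to 1.498).

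Hoxc11, named among the inversely regulated genes of the study, had a promoter peak in every library. It held 256 myogenic (225.6 to 289.4), 331 adipogenic (296.3 to 368.6) and 159 LSD1(OE) tags (135.2 to 185.7), with densities of 1.64, 1.44 and 1.23. Scores were 649, 542 and 346, and divided by the scaling they were 342, 424 and 190. Which wild-type library was higher therefore depended on the measure, while LSD1(OE) was lowest by all of them. The summit lay in an exon at 102954563 in the myogenic library, and before the gene at 102953739 and 102953759 in the other two.

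Among the other posterior Hoxc genes, the peaks counted for Hoxc10 differed between libraries more than those counted for Hoxc9. Hoxc10, a gene of the hindlimb and lumbar region, had a myogenic promoter peak with 409 tags and a score of 1410, and peaks with 110 tags (63.7) and 104 tags (149) in the adipogenic and LSD1(OE) libraries. These were centred 242 bp after the TSS in the myogenic library, 1444 bp before it in the adipogenic and 1738 bp after it in LSD1(OE), which had another promoter peak of 100 tags (score 115) centred 80 bp after the TSS. Those of Hoxc9, which patterns the thorax, held 124 myogenic, 181 adipogenic and 122 LSD1(OE) tags, with scores of 464, 386 and 375. Their densities of 1.69, 1.56 and 1.63 lay closer together than those of Hoxc10, Hoxc11 and Hoxc13. They were not at the same site, however. The adipogenic and LSD1(OE) summits, at 102975923 and 102976106, lay under another myogenic peak, of 341 tags, which was counted for Mir196a-2. At that site the scores were 1139, 386 and 375. The myogenic peak counted for Hoxc9 had its summit at 102977399. Hoxc12 had 88 myogenic tags (score 140) and 46 LSD1(OE) tags (81.3), and no adipogenic promoter peak.

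Promoter peaks were few at the central Hoxc genes. Hoxc6 had a myogenic promoter peak of 55 tags, scored 113 and centred 1940 bp before its curated TSS, just inside the promoter limit. Hoxc4 had an LSD1(OE) peak of 58 tags, scored 109. Hoxc8 fell just outside the limit in the myogenic library, with the nearest peak 2091 bp away, and at 3426 and 2987 bp in the adipogenic and LSD1(OE) libraries. Hoxc5 was 5677, 11254 and 7992 bp from its nearest peak.

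Between Hoxc8 and the curated Hoxc6 TSS lay the widest Lsd1 peak of the windows. Its place is a matter of annotation, because the Hoxc6 gene record starts at 102998226 and so includes the peak, while the curated TSS stands at 103009562. In the myogenic library the peak ran over 5389 bp (chr15:102998505-103003893) with 453 tags (412.2 to 496.7), a score of 1649, an FDR of 0% and its summit at 102999058, in the window printed above. It ranked 372 in that library, in the top 0.857%. It was overlapped by 3 adipogenic peaks scoring at most 192 and by 3 LSD1(OE) peaks scoring at most 782.

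In Hoxa the highest-scoring myogenic and adipogenic peak lay in the long Hoxa3 transcript, in the interval between Hoxa6 and Hoxa7, while in LSD1(OE) the Hoxa10 peak scored higher. It held 261 myogenic (230.3 to 294.7), 246 adipogenic and 197 LSD1(OE) tags, with scores of 1109, 460 and 512 and densities of 1.79, 1.36 and 1.32. In the myogenic library it ran over chr6:52210945-52214097 with an FDR of 0% and its summit in an intron at 52211711, and ranked 1045, in the top 2.41%. Hoxa10, which patterns the uterus and the limb, came next in the myogenic library with 274 myogenic tags and a score of 1033 (chr6:52231796-52235398, FDR 0%, summit 52234157), against 97 adipogenic (150) and 233 LSD1(OE) tags (610). Hoxa11, a gene of the forearm and lower leg, followed with 205 myogenic tags and a score of 762 (chr6:52244772-52247501, FDR 0%, summit 52245798) and 120 adipogenic tags (195). In the LSD1(OE) library the peak there, scored 55.6, was nearer the TSS of the antisense transcript Hoxa11os and was counted for that gene.

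Hoxa9 had 152 myogenic, 83 adipogenic and 135 LSD1(OE) tags, with scores of 484.5, 102 and 360. Hoxa13, of the hand and foot, had 70, 55 and 49 tags with scores of 243, 57.2 and 69.2. Hoxa7 had 120, 103 and 70 tags with scores of 372, 197 and 147. All of these scored highest in the myogenic library.

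Promoter peaks at other Hoxa genes had scores of at most 125. Hoxa2 had an LSD1(OE) peak of 32 tags (score 57.3), and Hoxa4 had 86 adipogenic (100.5) and 59 LSD1(OE) tags (125). Hoxa5 and Hoxa6 had no promoter peak, with the nearest 7771 to 7934 bp and 3686 to 3849 bp away.

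In Hoxb the only promoter peak was that of Hoxb5, in the LSD1(OE) library. It held 37 tags (26.1 to 51.0) at chr11:96303603-96304268, with a score of 59.4, an FDR of 0.35% and its summit in an exon at 96303991. A further pair of peaks overlapped each other in an intron of the antisense gene Hoxb5os, with 34 LSD1(OE) tags (chr11:96294471-96295078, score 57.6, FDR 0.38%, summit 96294850) and 28 myogenic tags (chr11:96294456-96295023, score 53.9, FDR 0.36%, summit 96294647). The last was an LSD1(OE) peak between genes, with 36 tags and a score of 51.0 (chr11:96233213-96233892). All 4 were close to the score of 50 at which peaks were called, so the call in one library and not in another rests on a few tags. The genes Hoxb1, Hoxb2, Hoxb3, Hoxb4, Hoxb6, Hoxb7, Hoxb8, Hoxb9 and Hoxb13 had no promoter peak.

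**Figure D3:**
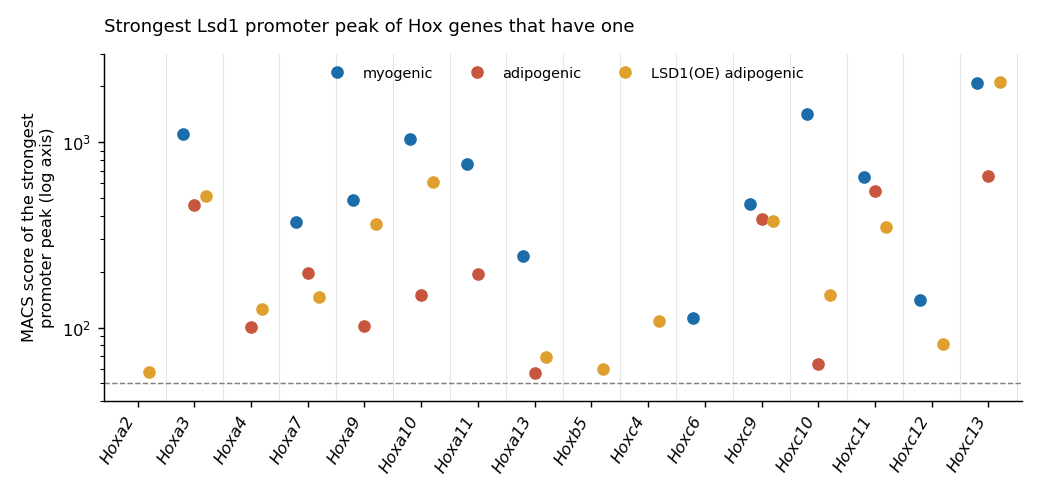
Score of the strongest Lsd1 promoter peak of each Hox gene (10 times −log10 p, logarithmic axis) in the myogenic, adipogenic and LSD1(OE) libraries, for 16 genes that had one, in cluster order, and the dashed line is the score of 50 at which peaks were called. Hoxc13 is highest with 2073, 653 and 2098, and Hoxb5 is the only Hoxb gene.

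Of the 9 genes with a promoter peak in all 3 libraries, the score was highest in the myogenic library for 8 and in LSD1(OE) for Hoxc13. Tag density was highest in the myogenic library for all 9. Over all regions with a peak in both libraries, the myogenic density was above the adipogenic in 88.2% and above LSD1(OE) in 74.4%. Scores divided by the scaling were highest in the myogenic library for 6, in the adipogenic for Hoxc9 and Hoxc11 and in LSD1(OE) for Hoxc13. For Hoxc9 the myogenic peak compared stood at another site than the adipogenic and LSD1(OE) peaks, as given above. The lowest score was adipogenic for 6 and LSD1(OE) for 3. The myogenic lead at these genes thus held by density, as at most regions at large, and for most but not all of them by the other measures.

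The lists differ in length, and this bears on the counts. With the 18893 strongest peaks of each library, 10, 11 and 10 Hox genes had a promoter peak in the myogenic, adipogenic and LSD1(OE) libraries, against 35.5%, 26.7% and 28.6% of all genes, and the windows held 29, 28 and 28 peaks. The adipogenic gene count was then no longer the lowest, and its peak count equalled that of LSD1(OE). The covered share kept its order, at 12.5%, 7.68% and 8.04% of the 4 windows.

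Merged over libraries, the peaks formed 55 regions, 24 in Hoxa, 3 in Hoxb and 28 in Hoxc. A peak in all 3 libraries was found in 19 of them (34.5%), against 20.6% of all merged regions. A peak in 2 libraries was found in 13 (23.6%, background 19.0%), and in 1 library in 23 (41.8%, background 60.4%). A larger share of the Hox regions than of regions at large thus had a peak in all 3 libraries, and the median score of the peaks in the 4 windows was 275 in the myogenic library against 122 over all its peaks, 107 against 112 in the adipogenic and 121 against 116 in LSD1(OE). Of the 23 in 1 library, 14 were myogenic (25.5% of the 55, background 35.9%), 8 LSD1(OE) (14.5%, background 20.8%) and 1 adipogenic (1.82%, background 3.7%). A further 9 had myogenic and LSD1(OE) peaks without an adipogenic one (16.4%, background 12.2%).

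At regions with a peak in both libraries, the myogenic density was above the adipogenic in 21 of 22, with a median ratio of 1.33, against 1.25 over all shared regions, of which 88.2% were above 1. At least 1.5-fold higher in the myogenic library were 5 of the 22 (background 16.9%), and 0 were so in the adipogenic library (background 0.0495%). Myogenic density was above LSD1(OE) in 26 of 28, with a median ratio of 1.22 against 1.14 over all, of which 74.4% were above 1. There 3 of 28 were at least 1.5-fold higher in the myogenic library (background 8.79%) and 0 in LSD1(OE) (background 0.517%). LSD1(OE) and adipogenic densities were close, with 11 of 20 above 1 (background 70.6%), ratios from 0.803 to 1.47 and a median of 1.06 against 1.09. None of the 20 was 1.5-fold higher in LSD1(OE) (background 2.80%) or in the adipogenic library (background 0.0843%). The median ratios of the Hox regions thus lay close to those of shared regions at large. The share above 1 was larger than the background for myogenic over either library. It was smaller for LSD1(OE) over adipogenic, and these differences were not tested.

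The 5 regions with the larger myogenic over adipogenic ratios were spread over both clusters. They were the Hoxa9 promoter (1.57, counting interval 1.20 to 2.08), the Hoxa13 promoter (1.57, 1.08 to 2.27), a region at chr6:52149675-52151199 (1.70, 1.24 to 2.35), one beside Hotair at chr15:102942662-102944097 (1.58, 1.20 to 2.10) and one at chr15:102959415-102964536 near Hoxc10 (1.504, 1.19 to 1.91). Over LSD1(OE) the regions past 1.5-fold were at Hoxa11 (1.64, 1.20 to 2.28), Hoxa13 (1.57, 1.07 to 2.31) and upstream of Hoxa7 (1.54, 1.06 to 2.25). Each interval reached below 1.5, so counting error alone covers a smaller difference.

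**Figure D4:**
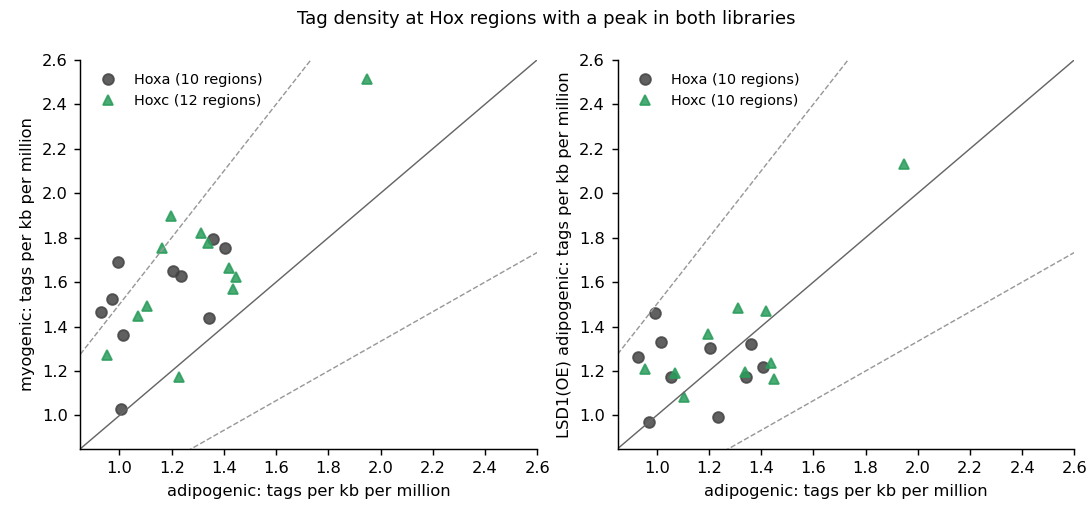
Tag density (tags per kb and per 1000000 filtered ChIP tags) of Hox regions with a peak in both libraries, myogenic (left) and LSD1(OE) (right) on the vertical axis against adipogenic on the horizontal, one point per region, with lines of equal density (solid) and of 1.5-fold (dashed). Of the points 21 of 22 lie above equal density on the left and 11 of 20 on the right.

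The clusters also hold non-coding genes, among them lncRNAs that act on Hox expression and the microRNAs miR-196 and miR-10, which target Hox transcripts. In Hoxc, 3 of 4 non-coding genes had a promoter peak in every library. The gene backgrounds above are of protein-coding genes, and none is given here for non-coding genes. Whether their counts in the clusters are high or low can therefore not be told. Hotair, the lncRNA between Hoxc11 and Hoxc12, scored 605 with 260 myogenic tags, 62.6 with 62 adipogenic and 150 with 120 LSD1(OE) tags. Mir196a-2 scored 1139, 273 and 89.1 with 341, 185 and 76 tags, and Gm36878 scored 570, 86.7 and 51.9. All 3 were highest in the myogenic library, and Mir615 had no promoter peak. For a microRNA gene the TSS used was the 5' end of its annotated record, at 102973350 for Mir196a-2. A peak counted there as a promoter peak therefore need not mark a promoter. The values for Mir196a-2 are not of the same site. Its myogenic summit, at 102975984, lay nearer the Hoxc9 TSS, and the adipogenic and LSD1(OE) peaks there, scored 386 and 375, were counted for Hoxc9. The adipogenic and LSD1(OE) peaks counted for Mir196a-2 had summits at 102973984 and 102973591.

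In Hoxa 2, 1 and 3 of 11 such genes had a promoter peak. They were Mir196b (myogenic, score 100.9), Mira (myogenic 234 and LSD1(OE) 110), Hotairm1 (adipogenic 86.4), Hottip (LSD1(OE) 52.8) and Hoxa11os (LSD1(OE) 55.6). In Hoxb 0 of 6 had one, and in Hoxd 0 of 6 other genes did, of which Mir10b and the lncRNAs are non-coding and Evx2 is a protein-coding homeobox gene. The mature microRNAs, from RefSeq on GRCm38.p6, are shown because copies with the same seed stood in bound and unbound clusters. Capitals mark the seed, bases 2 to 8.
miR-196a-5p: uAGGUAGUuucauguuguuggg
miR-196b-5p: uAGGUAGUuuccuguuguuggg
miR-10a-5p: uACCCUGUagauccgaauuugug
miR-10b-5p: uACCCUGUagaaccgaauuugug

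The first of these is made from Mir196a-2 in Hoxc (chr15:102973365-102973386, plus strand) and from Mir196a-1 in Hoxb (chr11:96265187-96265208, plus strand), and miR-196b from Hoxa (chr6:52230129-52230150, minus strand). They share the seed, and only the copies in Hoxc and Hoxa had a peak centred within 2000 bp of the 5' end of the record. For Mir196b in Hoxa this was in the myogenic library alone. The miR-10 pair shares another seed and lies in Hoxb (chr11:96317186-96317208) and Hoxd (chr2:74726074-74726096), where neither had one.

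Other genes of the Hox pathway were counted against the same backgrounds of 46.0%, 26.7% and 36.8% of protein-coding genes. The TALE cofactors, homeodomain partners with which Hox proteins bind DNA, had promoter peaks at 9, 5 and 5 of 9 genes, led by Pbx3 (1327 myogenic, 142 adipogenic, 286 LSD1(OE)) and Pknox1 (542, 150 and 185). The Cdx genes, upstream activators of Hox genes, had 0, 0 and 1 of 3, a weak LSD1(OE) peak at Cdx1 (51.0). Of the Polycomb genes, which keep Hox genes silent, 14, 8 and 11 of 15 had one, with the highest scores at Cbx2 (1538, 386 and 931) and Cbx7 (917, 554 and 672). Of the Trithorax genes, which maintain Hox expression, 4, 3 and 3 of 6 had one, including Men1 (336, 308 and 403) and Ash2l (378, 111 and 191). The cofactor, Polycomb and Trithorax lists lay above the background in each library and the Cdx list in none, and these lists were not tested.

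Base composition did not separate Hox genes with and without a peak. Within 500 bp of the TSS the CpG ratio (observed over that predicted from base content) had a median of 0.689 over the 17 genes with a promoter peak in some library and 0.700 over the 22 without, against 0.572 over all protein-coding genes. By cluster it was 0.689 in Hoxa, 0.617 in Hoxb, 0.651 in Hoxc and 0.751 in Hoxd, so the empty cluster had the highest median. GC content was 57.0% and 58.3%, against 55.6% over all.

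Motif letters were searched on both strands of the RefSeq promoter windows, from 250 bases before to 50 after the TSS, which covered 22 of the 39 genes with 24 promoters. The genes not covered include every Hoxc gene but Hoxc4. The shares with and without a peak thus leave out nearly all of the cluster with the most peaks. The Pbx-Hox motif TGATNNAT stood in 16.7% of the 24, against 8.85% of all 32851 promoters, and in 11.1% of the 9 with and 20.0% of the 15 without a peak. The Meis motif TGACAG stood in 8.33% (all promoters 19.2%), in those of Hoxa2 and Hoxa3. The E-box CAGCTG, the letters that MyoD prefers, stood in 16.7% (all 16.3%), in those of Hoxa3, Hoxa5, Hoxa6 and Hoxa11. The Sp motif GGGCGG stood in 41.7% (all 35.7%), with 44.4% of promoters with and 40% without a peak. With so few promoters these shares are descriptions of the letters only.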

How the data were processed

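Lsd1 ChIP and input of C2C12 cells were read as single 50 bp reads, mapped by the authors to mm10 (Bowtie in the study's methods, Bowtie2 in the submitters' notes). The authors called peaks for each ChIP library against its input with MACS 1.4.2, as the file headers state (the submitters' notes list 1.41), at a p cut-off of 1e-05. The deposited tags are counts after the duplicate limit and not normalized. The deposited score is 10 times −log10 of p after the smaller library was scaled up. MACS estimated the deposited FDR, a percent, by calling the input against the ChIP, and all peaks were under 1%. The deposited fold enrichment, a ratio to local background, was not used. BED copies were not used, and expression data were not analysed here.

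Peaks went to the nearest of 31647 curated RefSeq TSSs of 26180 genes. Tags were divided by peak length and by filtered ChIP tags, within the bounds that each library gave its peak. Libraries were merged by an overlap of 1 bp. Intervals are exact Poisson or binomial at 95%. The labels give 3 days of adipogenic induction and the study's methods 2 days. Hox genes with a promoter peak are named, except 1 that is counted but not reported here, with the 3 highest peaks of each cluster and Hoxc11 in full, and pathway lists by their 2 highest scores. Members and lists were chosen with earlier results of these data known. Alternatives were a stricter FDR, a higher score, equal numbers of peaks, unscaled scores, other promoter windows and other densities. Steps were tested on simulated data. Python 3.11.15, NumPy 2.4.6, pandas 2.3.3, SciPy 1.17.1 and matplotlib 3.10.9 were used.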

Additional observations from a re-analysis of the deposited data

How the results depend on the processing

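Of 336 values recomputed under alternatives, 268 stayed close to the reported value and 68 moved. At an FDR under 0.1%, 7 adipogenic and 8 LSD1(OE) Hox genes had a promoter peak (17.9% and 20.5%, against 15.6% and 24.9% of all genes). The windows then held 13 adipogenic and 20 LSD1(OE) peaks covering 4.54% and 6.61%. Of the regions, 12 were in 1 library (38.7%, background 53.4%) and 9 in all 3 (29.0%, background 23.3%). With a promoter of 1000 bp, 7 adipogenic Hox genes had a promoter peak (17.9%, background 25.2%). With scores of at least 100 there were 16 adipogenic and 28 LSD1(OE) peaks, 13 regions in 1 library (37.1%, background 52.4%) and 10 in all 3 (28.6%, background 24.2%). With equal numbers of peaks there were 29 myogenic and 28 LSD1(OE) peaks. Then 10 regions were in 1 library (29.4%, background 46.8%) and 14 in all 3 (41.2%, background 29.9%). With unscaled scores of at least 50 there were 28 LSD1(OE) peaks, 13 regions in 1 library (35.1%, background 49.7%) and 12 in all 3 (32.4%, background 27.8%). The share of Hox regions in all 3 libraries thus stayed above the background, but by less with the stricter FDR, the higher score and the unscaled score. These settings keep fewer peaks or a narrower promoter by construction. With tags scaled to library size but not divided by length, 13 regions were at least 1.5-fold higher in myogenic than adipogenic and 1 the reverse, 5 in LSD1(OE) than adipogenic and 4 the reverse, and 16 in myogenic than LSD1(OE) and 3 the reverse. With unscaled scores as the measure these were 16 and 1, 9 and 6, and 21 and 3, and the median ratios of myogenic over adipogenic and over LSD1(OE) were 2.24 and 2.19. The cause was not tested. Hoxd stayed at 0 in all 51 alternative values. The covered share of the 4 windows together kept the order adipogenic, LSD1(OE), myogenic from low to high under each alternative run. No paired analysis was possible because each condition had 1 ChIP library, and for the same reason no library could be left out. The weakest called peaks, of 27 to 35 tags, set the depth limit, below which a Hox site was not detectable.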

Other observations

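Several Hoxc peaks stood close together. Peaks no more than 1000 bp apart formed a run of 25.4 kb in the myogenic library (chr15:102959415-102984794), with 9 peaks and 1802 tags, from near Hoxc10 past Mir196a-2. It was the run of rank 3 by length among 36554. The longest Hoxc runs in the other libraries were 7.99 kb with 4 adipogenic peaks, rank 62 of 16866, and 8.24 kb with 4 LSD1(OE) peaks, rank 154 of 28326.

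Of the 27247 tiles of 100 kb, 10 (0.0367%), 61 (0.224%) and 63 (0.231%) were at least as covered as the Hoxc window in the myogenic, adipogenic and LSD1(OE) libraries, and 119 (0.437%), 239 (0.877%) and 319 (1.17%) as the Hoxa window. Here too the tiles were not matched for gene content. The longest stretch of Hoxc without a peak, over the translation starts of Hoxc5 and Hoxc6, was 10.9 kb in the myogenic, 23.3 kb in the adipogenic and 17.8 kb in the LSD1(OE) library. In Hoxa it was 49.3 kb, 30.1 kb and 27.9 kb, and lay over Hoxa2 and Hoxa3 in each library and over Hoxa4, Hoxa5 and Hoxa6 in the myogenic library alone.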
